A study of Mus musculus with 9 samples.

Results

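The sphingosine-1-phosphate (S1P), oxysterol, lysophosphatidylserine and cannabinoid receptors that guide lymphocytes through tissues were described in sorted splenic B cells of C57BL/6 wild-type mice. They comprise 9 of the 24346 genes listed per library, namely the S1P receptors S1pr1, S1pr2, S1pr3, S1pr4 and S1pr5, the oxysterol receptor Gpr183, the lysophosphatidylserine receptors P2ry10 and Gpr174, and the cannabinoid receptor Cnr2. The list was chosen by receptor family and with the FPKM values (fragments per kilobase of transcript, scaled to the mapped reads of the library) of these same libraries in view, so the levels of the 9 genes are given as a description, without a test. All 9 gene symbols were found in each of the 9 libraries. The libraries fall into 3 groups of 3: follicular B cells of 8-week-old mice, FO B (Young); follicular B cells of 50-week-old mice, FO B (Aged); and age-associated B cells of 50-week-old mice, ABCs (Aged). FO B cells were sorted as B220hiCD43-CD23+CD21lo cells and ABCs as B220hiCD43-CD23-CD21lo cells that also carried CD11b and CD11c. No transgene or treatment was named for any of these mice, and the study describes the libraries of a group as separate mice.

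Lipid positioning receptors are G protein-coupled receptors that let a lymphocyte read gradients of small lipids. S1P is abundant in blood and lymph and kept low inside tissue by degrading enzymes; S1PR1 signals through Gi proteins and draws lymphocytes toward the circulation, whereas S1PR2 couples to G12 and G13 proteins and holds B cells in the follicle center. GPR183, also called EBI2, senses oxysterols and brings B cells to the outer follicle, and S1PR3 and the cannabinoid receptor CB2, which Cnr2 encodes, are known for their part in placing marginal zone B cells. S1PR5 is best known for the exit of natural killer (NK) cells from tissues.

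Approximate depth, from the FPKM value of 1 read in genes with a single transcript, was 8080000 to 9820000 mapped reads per library. The RNA of the sort markers was read first. Fcer2a, which encodes CD23, was at 697 to 728 FPKM in FO B (Aged) and at 0.463 to 6.95 FPKM in ABCs (Aged). Itgam, the CD11b gene, was at 46.2 to 65.7 FPKM in ABCs (Aged) and at most 0.980 FPKM elsewhere. Spn, the CD43 gene, went against the gate, at 54.1 to 86.7 FPKM in ABCs (Aged) and 2.75 to 3.32 FPKM in FO B (Aged), although both populations were sorted as CD43-. One library stood apart within its group, since ABCs (Aged) replicate 3 had 0.463 FPKM of Fcer2a against 4.15 and 6.95 in the other ABC libraries. Its Cr2, the CD21 gene, was at 0.745 FPKM against 4.93 and 8.39, and it held the highest S1pr3 and the lowest S1pr4, Gpr174 and Cnr2 among the 3 ABC libraries. Where leaving this library out moved a receptor value by over 1.5 times or changed an order or direction, the value without it is given too.

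**Figure D1:**
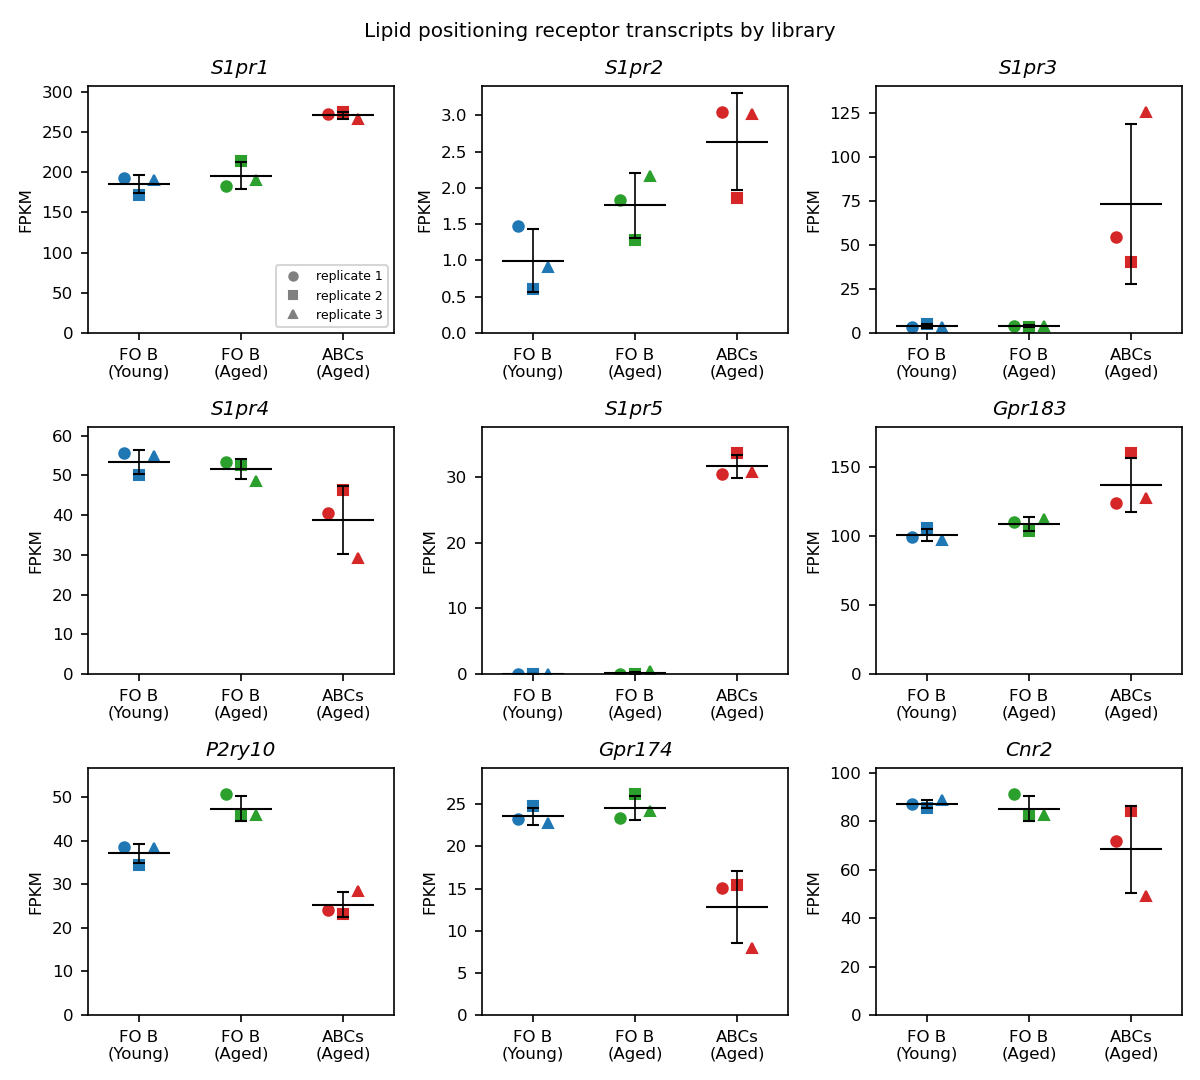
FPKM (vertical axes, linear and starting at 0) of the 9 receptors in each library of FO B (Young), FO B (Aged) and ABCs (Aged); symbols mark the replicate number, long lines the mean and error bars the SD (n = 3), cut at 0. S1pr3 and S1pr5 in ABCs (Aged) lay above both FO B groups, at 40.3 to 125 and 30.6 to 33.6 FPKM, whereas P2ry10 and Gpr174 lay below both.

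Sequence upstream of 4 of the receptors is shown because S1pr5 and S1pr3 had the largest differences toward ABCs (Aged), and Gpr174 and P2ry10 the largest toward FO B (Aged). RefSeq promoter windows on GRCm38.p6 were found for 8 of the 9 genes, S1pr1 having no entry. Each line gives the 250 bases before an annotated start, read 5′ to 3′ on the strand of the gene, and capitals mark CG dinucleotides. The windows are chr9:21248444-21248693 on the minus strand for S1pr5, chr13:51408368-51408617 on the plus strand for S1pr3, chrX:107284096-107284345 on the plus strand for Gpr174 and chrX:107088242-107088491 on the plus strand for the first of 2 starts of P2ry10. The Gpr174 window precedes a RefSeq start but lies inside the gene as GENCODE M21 places it, from 107255878 to 107296769.
S1pr5: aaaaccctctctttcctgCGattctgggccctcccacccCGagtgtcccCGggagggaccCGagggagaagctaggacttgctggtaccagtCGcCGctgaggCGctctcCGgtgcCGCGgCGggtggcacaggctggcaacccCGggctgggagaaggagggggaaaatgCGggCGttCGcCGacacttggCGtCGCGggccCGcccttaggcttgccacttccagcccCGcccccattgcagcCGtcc
S1pr3: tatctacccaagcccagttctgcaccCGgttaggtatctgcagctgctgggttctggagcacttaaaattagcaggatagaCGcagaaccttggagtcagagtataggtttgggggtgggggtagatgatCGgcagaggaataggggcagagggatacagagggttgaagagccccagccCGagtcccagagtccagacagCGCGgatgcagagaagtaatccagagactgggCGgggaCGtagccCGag
Gpr174: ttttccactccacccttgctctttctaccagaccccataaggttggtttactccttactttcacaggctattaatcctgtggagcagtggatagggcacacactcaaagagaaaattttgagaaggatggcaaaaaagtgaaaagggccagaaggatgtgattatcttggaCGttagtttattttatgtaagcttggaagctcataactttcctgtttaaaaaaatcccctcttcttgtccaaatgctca
P2ry10: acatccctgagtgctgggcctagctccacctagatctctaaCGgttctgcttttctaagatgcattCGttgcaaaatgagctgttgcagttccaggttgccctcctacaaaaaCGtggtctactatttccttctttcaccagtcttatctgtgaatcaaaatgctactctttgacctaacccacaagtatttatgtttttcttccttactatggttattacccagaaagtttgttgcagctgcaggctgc

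The S1pr5 window held 22 CG dinucleotides and was 69.2% G and C, the S1pr3 window 9 CG and 56.4%, the P2ry10 window 3 CG and 43.2%, and the Gpr174 window 1 CG and 40.4%. Over 32851 windows of 27025 genes the median was 6 CG dinucleotides (0 to 31 from the 5th to the 95th percentile) and 52.4% G and C (34.8% to 73.6%), so all 4 lay inside the usual range. Matches on either strand were sought to GGTGTGA, a core that T-box factors recognise, to CACCTG, an E-box that ZEB factors recognise, and to GAGGAAG, a PU.1 core; these 3 strings do not overlap one another. None of the 4 windows printed above held a match. CACCTG was found upstream of S1pr2, S1pr4 and Cnr2, and GAGGAAG upstream of the second start of P2ry10. Of all windows, 3.33% held GGTGTGA, 17.2% held CACCTG and 10.6% held GAGGAAG, and the absence of these letters from a window of 250 bases says nothing about a factor.

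S1pr5, at chromosome 9, 21242912 to 21248443 on the minus strand (GRCm38, GENCODE M21), had the largest difference of the 9 genes. In FPKM it was at 0, 0 and 0.0495 in FO B (Young), at 0.0538, 0.0442 and 0.394 in FO B (Aged), and at 30.6, 33.6 and 30.8 in ABCs (Aged). The 3 ABC libraries lay close together, 31.7 ± 1.71 FPKM (SD, n = 3), and far above the 6 FO B libraries. In whole reads this was 1852 reads over the ABC libraries against 10 over FO B (Aged), where replicates 1 and 2 held 1 read each and replicate 3 held 8, and 1 over FO B (Young). On the log2(FPKM + 1) scale ABCs (Aged) were higher than FO B (Aged) by 4.82 (SE 0.14).

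The ratio of S1pr5 means between ABCs (Aged) and FO B (Aged) was 193, and 646 without FO B (Aged) replicate 3. Per depth the reads gave a ratio of 195, with an exact interval of 106 to 408 at 95% confidence that covers counting error only. Against FO B (Young), where no library exceeded 3 reads, S1pr5 was at least 213-fold higher in ABCs (Aged), with 3 reads per library as the floor. FO B (Aged) replicate 3 also had the highest neutrophil transcripts of the 9 libraries, with S100a8 at 15.2 FPKM and S100a9 at 6.16 FPKM, and their part in its S1pr5 reads was not tested. The 6 NK cell markers Ncr1, Klrb1c, Klrk1, Nkg7, Gzma and Eomes summed to 0.202 to 2.83 FPKM in ABCs (Aged) and to 0.0413 to 0.281 in FO B (Aged). Nkg7, at 2.03, 1.84 and 0.202 FPKM, was the 1 gene of that list above FO B (Aged) in every ABC library, Ncr1 was at 0, 0.0882 and 0 FPKM, and their part in the S1pr5 values was not tested. S1pr5 is also among the genes that the study displayed for being high in ABCs of these libraries, so this difference is not independent evidence. In bulk libraries a gene carried by fewer cells and a gene with less RNA per cell cannot be told apart. The annotated S1pr5 exons share 51 bases with Gm48303 on the other strand, and the library kit does not mark strand.

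S1pr3, on chromosome 13 from 51408639 to 51422797 on the plus strand, was likewise low in FO B cells and abundant in ABCs. It measured 3.52, 5.19 and 3.23 FPKM in FO B (Young), 4.08, 3.64 and 4.23 FPKM in FO B (Aged), and 54.8, 40.3 and 125 FPKM in ABCs (Aged). Every ABC library exceeded every FO B library, but the ABC libraries themselves spread over a wide range, 73.4 ± 45.4 FPKM (SD, n = 3), with replicate 3 the highest. ABCs (Aged) were higher than FO B (Aged) by 3.73 (SE 0.48) on the log2 scale, and by 3.27 without ABCs (Aged) replicate 3. The ratio of means was 18.4 with all libraries and 11.9 without that one. Among expressed genes, those reaching 1 FPKM in the library, S1pr3 ranked above 16.2% to 19.0% of them in FO B (Aged) and above 75.3% to 91.1% in ABCs (Aged).

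Because S1pr3 is also carried by marginal zone B cells and blood vessels, their markers were read beside it. Of the marginal zone list, Cr2 was at 0.745 to 8.39 FPKM in ABCs (Aged) and 127 to 166 FPKM in FO B (Aged), while Cd9 was at 73.7 to 83.9 FPKM in ABCs (Aged) and 7.03 to 10.1 FPKM in FO B (Aged). The 5 genes of that list summed to 120 to 156 FPKM in ABCs (Aged), the largest part being Cd9. In FO B (Aged) they summed to 221 to 250 FPKM, the largest part being Cr2, so the order of the sums rests on Cr2. Of the 5 genes, 1, Cd9, lay above FO B (Aged) in every ABC library and 3 lay below. The 5 endothelial genes summed to 39.5 to 54.9 FPKM in ABCs (Aged) and 67.6 to 77.1 FPKM in FO B (Aged), nearly all of it Pecam1. The order of these sums therefore rests on Pecam1, which lay below FO B (Aged) in every ABC library. Cdh5 lay above in every ABC library, at 0.175 to 0.258 against at most 0.0325 FPKM. Cdh5, Kdr, Tek and Stab2 were each at most 0.372 FPKM. Macrophage and monocyte genes summed to 77.2 to 100.1 FPKM in ABCs (Aged) against 18.2 to 24.1 FPKM in FO B (Aged); Ly6c2 and Cd68 were the members of that list above FO B (Aged) in every ABC library, Csf1r was at most 0.831 FPKM, and the part of these transcripts in any receptor value was not tested. T cell genes summed to 5.19 to 38.4 FPKM in ABCs (Aged), most of it Cd3g, and to 0.357 to 1.13 FPKM in FO B (Aged). Of the 7 genes 2, Cd3g and Cd28, lay above FO B (Aged) in every ABC library and 0 lay below, with Cd3e at most 0.0996 FPKM. Plasma cell genes summed to 191 to 225 FPKM in ABCs (Aged) and 129 to 148 FPKM in FO B (Aged), and 4 of the 5, Sdc1, Prdm1, Jchain and Xbp1, lay above FO B (Aged) in every ABC library, Jchain at 12.5 to 61.6 against 2.73 to 8.44 FPKM. Dendritic cell genes summed to 4.39 to 7.42 FPKM in ABCs (Aged) and 2.40 to 4.55 FPKM in FO B (Aged), with 3 of 6 above in every ABC library. The part of these transcripts in the receptor values was not tested. S1pr3 exons share 45 bases with the antisense lincRNA Gm32834.

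S1pr1, on chromosome 3 from 115710433 to 115715072 on the minus strand, the main receptor of lymphocyte exit into blood and lymph, had the highest FPKM of the 9 receptors in every library. Its level was 193, 172 and 191 FPKM in FO B (Young), 183, 214 and 190 FPKM in FO B (Aged), and 272, 274 and 266 FPKM in ABCs (Aged). The ABC libraries lay above all 6 FO B libraries and varied least of the 3 groups, with means of 185 ± 11.6, 196 ± 16.6 and 271 ± 4.37 FPKM (SD, n = 3). ABCs (Aged) were higher than FO B (Aged) by 0.47 (SE 0.07) on the log2 scale, a ratio of means of 1.38. S1pr1 already ranked above 94.4% to 95.4% of expressed genes in FO B (Aged), so the receptor was abundant in all 3 populations.

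S1pr4, on chromosome 10 from 81497747 to 81500132 on the minus strand, is the S1P receptor typical of hematopoietic cells and was second among S1P receptors in FO B cells. It measured 55.5, 50.0 and 54.9 FPKM in FO B (Young), 53.3, 52.7 and 48.7 FPKM in FO B (Aged), and 40.6, 46.2 and 29.3 FPKM in ABCs (Aged). The ABC libraries lay below all FO B libraries, replicate 2 by a narrow margin and replicate 3 by the most. The difference was -0.43 (SE 0.19) on the log2 scale, and -0.24 without ABCs (Aged) replicate 3. Its neighbour 2173 bases away, Gna15, which encodes a G protein subunit of the Gq class, fell by 2.60 on the log2 scale in ABCs (Aged) (SE 0.32, adjusted p = 0.00101 by limma).

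S1pr2, on chromosome 9 from 20962361 to 20976781 on the minus strand, encodes the receptor that confines B cells to germinal centers and was scarce throughout. It was at 1.47, 0.611 and 0.912 FPKM in FO B (Young), 1.84, 1.28 and 2.16 FPKM in FO B (Aged), and 3.04, 1.86 and 3.02 FPKM in ABCs (Aged). Values of ABCs (Aged) and FO B (Aged) overlapped, because ABCs (Aged) replicate 2 lay below FO B (Aged) replicate 3, and the log2 difference of 0.39 had an SE of 0.21. These values rest on 14 to 65 reads per library, which may be too few if 1 read is worth less than the files show. Germinal center genes summed to 9.37 to 11.7 FPKM in ABCs (Aged) and 27.5 to 37.7 FPKM in FO B (Aged), most of it Bcl6 at 5.27 to 8.04 and 25.1 to 36.4 FPKM. Of the 5 genes 2 lay below FO B (Aged) in every ABC library and 2 above, the latter being Mki67, at 1.83 to 3.49 against 0.361 to 0.675 FPKM, and Mybl1, at 0.504 to 1.13 against 0.0978 to 0.160 FPKM.

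FPKM is a value per transcript length, so the S1P receptors could be set side by side as shares of their sum. The 5 S1P receptors together amounted to 244 ± 14.0 FPKM in FO B (Young), 253 ± 16.5 FPKM in FO B (Aged) and 417 ± 32.1 FPKM in ABCs (Aged) (SD, n = 3). S1pr1 made up 77.2% ± 1.64 of the sum in FO B (Aged) and 65.2% ± 5.81 in ABCs (Aged). The share of S1pr4 was 20.4% ± 1.40 in FO B (Aged) and 9.41% ± 2.68 in ABCs (Aged), while S1pr3 went from 1.58% ± 0.213 to 17.1% ± 9.20 and S1pr5 from 0.0663% ± 0.0816 to 7.63% ± 0.853. By these shares FO B cells carried S1pr1 and S1pr4 almost alone, and in ABCs 4 S1P receptors each had a mean share of 7.63% or more. The share of S1pr3 in ABCs (Aged) ran from 10.2% to 27.6%, the highest being replicate 3, and its mean was 11.9% without that library. FO B (Young) resembled FO B (Aged), with 76.0% ± 0.442 S1pr1 and 21.9% ± 0.0459 S1pr4. Coding sequences of S1pr1 and S1pr3 were 66.1% identical and those of S1pr4 and S1pr5 65.1%, the closest pairs in the family, and no stretch as long as a sequencing read was shared between any of their transcripts.

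**Figure D2:**
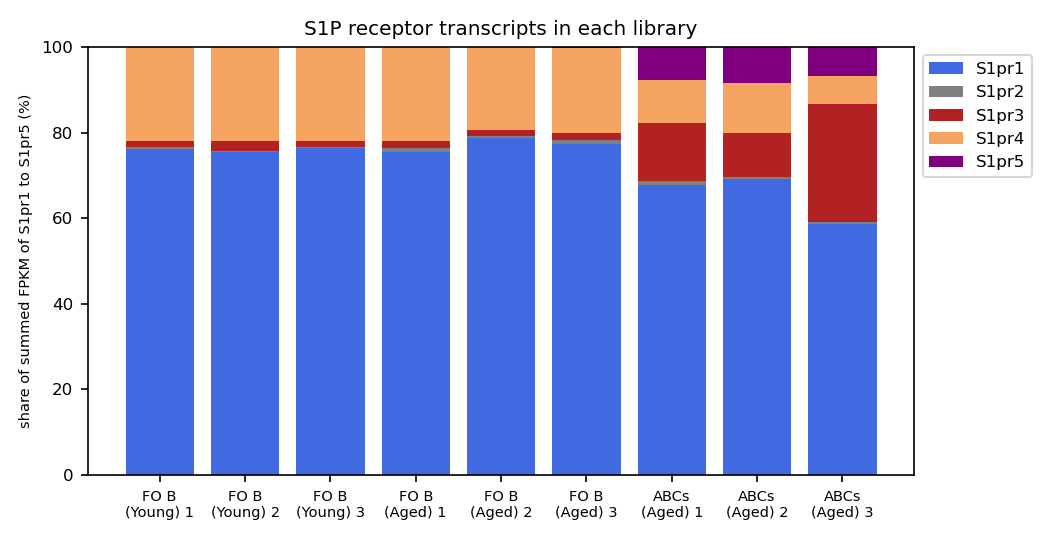
Share of each S1P receptor in the summed FPKM of S1pr1 to S1pr5 (vertical axis, percent) in each of the 9 libraries (1 bar per library). S1pr1 and S1pr4 fill nearly the whole bar in the 6 FO B libraries, whereas S1pr3 takes 10.2% to 27.6% and S1pr5 6.78% to 8.49% in the 3 ABC libraries.

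Gpr183, on chromosome 14 from 121952551 to 121965195 on the minus strand, was the second most abundant of the 9 receptors by group mean in all 3 groups. Its level was 99.7, 106 and 97.3 FPKM in FO B (Young), 110, 104 and 113 FPKM in FO B (Aged), and 124, 160 and 128 FPKM in ABCs (Aged). Each ABC library lay above each FO B library, and replicate 2 was the highest. The log2 difference between ABCs (Aged) and FO B (Aged) was 0.32 (SE 0.12), a ratio of means of 1.26. Gpr183 lies within Ubac2, a gene on the other strand at 60.9 to 76.2 FPKM, and the exons of both genes share 0 bases. In ABCs (Aged), S1pr3 of replicate 3 at 125 FPKM reached above the Gpr183 value of 124 FPKM in replicate 1, so the ranges of these genes overlapped there.

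P2ry10 and Gpr174, both receptors for lysophosphatidylserine, lie on the X chromosome on the plus strand, P2ry10 from 107088492 to 107104974 and Gpr174 from 107255878 to 107296769, with the close relative P2ry10b between them. P2ry10 measured 38.5, 34.5 and 38.2 FPKM in FO B (Young), 50.6, 45.7 and 45.8 FPKM in FO B (Aged), and 24.1, 23.2 and 28.5 FPKM in ABCs (Aged). The 3 groups did not overlap: P2ry10 was lowest in ABCs (Aged), intermediate in FO B (Young) and highest in FO B (Aged). The log2 difference of ABCs (Aged) from FO B (Aged) was -0.88 (SE 0.10), and -0.97 without ABCs (Aged) replicate 3.

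Gpr174 measured 23.2, 24.7 and 22.8 FPKM in FO B (Young), 23.3, 26.2 and 24.2 FPKM in FO B (Aged), and 15.1, 15.4 and 7.93 FPKM in ABCs (Aged). The ABC libraries all lay below the FO B libraries, and replicate 3 was the lowest. Its mean in ABCs (Aged) was 0.521 of that in FO B (Aged), and 0.621 without replicate 3; the log2 difference was -0.94 (SE 0.29), and -0.65 without replicate 3. P2ry10b, which was not among the 9 genes, fell by 0.90 on the log2 scale (SE 0.17 by limma), from 19.19 to 10.04 FPKM (adjusted p = 0.00701 by limma, 0.00172 to 0.0631 over the alternatives). P2ry10 and P2ry10b are 81.2% identical in coding sequence and share 60 of the 2979 read-length windows of P2ry10 transcripts, so a small part of the reads of one could be counted for the other.

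Cnr2, on chromosome 4 from 135895394 to 135920207 on the plus strand, encodes the cannabinoid receptor of immune cells. It measured 87.0, 85.6 and 88.8 FPKM in FO B (Young), 91.0, 82.0 and 82.7 FPKM in FO B (Aged), and 72.02, 84.02 and 48.92 FPKM in ABCs (Aged). The groups overlapped, since ABCs (Aged) replicate 2 lay above FO B (Aged) replicates 2 and 3, and replicate 3 was by far the lowest. The log2 difference of -0.35 (SE 0.23) was -0.13 without replicate 3.

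**Figure D3:**
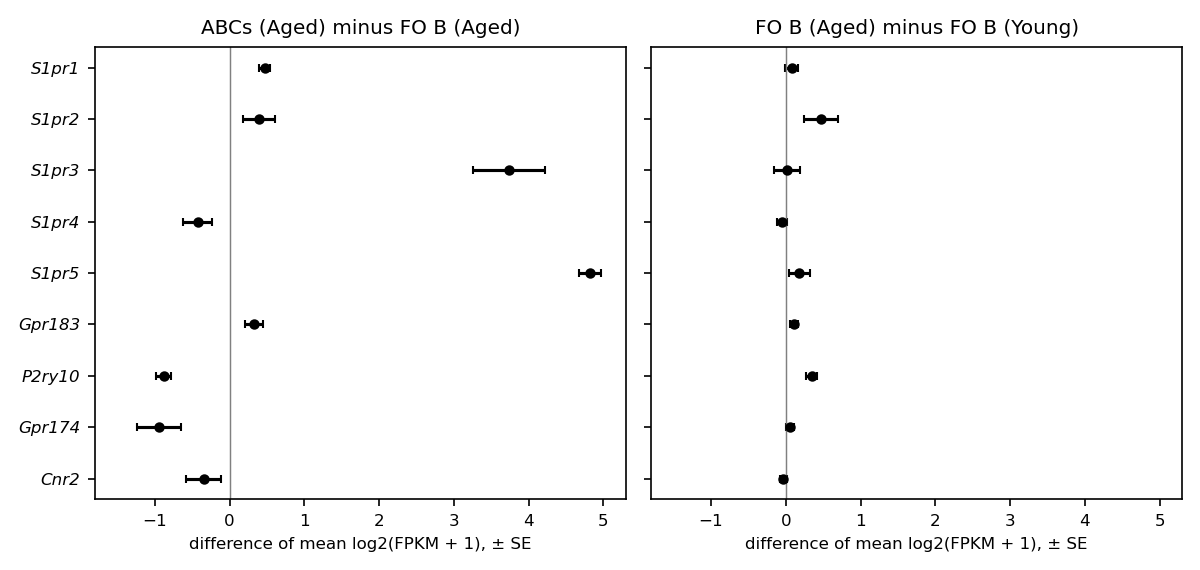
Difference of mean log2(FPKM + 1) with its SE (error bars, 3 libraries per group) for the 9 receptors, ABCs (Aged) minus FO B (Aged) on the left and FO B (Aged) minus FO B (Young) on the right, on the same horizontal scale. S1pr5 (4.82) and S1pr3 (3.73) stand far to the right in the first panel, and in the second no receptor differs by more than 0.48.

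Of the 9 receptors, 4 (S1pr1, S1pr3, S1pr5 and Gpr183) had all ABC libraries above all FO B (Aged) libraries, and 3 (S1pr4, P2ry10 and Gpr174) had all below. Among all 10412 genes whose mean reached 1 FPKM, 26.3% had the ABC libraries above and 26.3% below; since the list was drawn up with this contrast in view, nothing is read from its counts. By mean FPKM, the order in FO B (Aged) was S1pr1, Gpr183, Cnr2, S1pr4, P2ry10, Gpr174, S1pr3, S1pr2 and S1pr5. The ranges of S1pr4 and P2ry10 overlapped in that order and those of the other neighbours did not. The order in ABCs (Aged) was S1pr1, Gpr183, S1pr3, Cnr2, S1pr4, S1pr5, P2ry10, Gpr174 and S1pr2, where neighbours overlapped from Gpr183 to S1pr3, from S1pr3 to Cnr2 and from S1pr4 to S1pr5. Without ABCs (Aged) replicate 3 the means of S1pr3 and Cnr2 were 47.5 and 78.02 FPKM, which puts Cnr2 before S1pr3.

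FO B (Aged) and FO B (Young) were compared to see how the receptors differed with age within 1 subset. P2ry10 was the single receptor, of the 8 whose mean reached 1 FPKM, whose aged libraries all lay above the young ones, against 9.64% of 10122 genes, and 0 of 8 had them all below, against 8.96%. P2ry10 was 0.35 higher on the log2 scale in FO B (Aged) (SE 0.07), 47.3 ± 2.80 against 37.1 ± 2.24 FPKM (SD, n = 3), a ratio of 1.28. S1pr2 was higher by 0.48 (SE 0.23), with overlapping libraries. The remaining differences lay between -0.05 for S1pr4 and 0.18 for S1pr5, the latter resting on the 8 reads of FO B (Aged) replicate 3. For S1pr1 the difference was 0.08 (SE 0.09), and for S1pr3 0.02 (SE 0.18). The 3 FO B (Aged) libraries are shared by both contrasts, so the P2ry10 differences of the 2 contrasts are not independent of each other.

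By the root mean square difference of centred log2(FPKM + 1) over the 9 libraries, the 5 of 10375 genes most like S1pr5 were Itgam (0.18), Itgb1 (0.25), Il2rb (0.26), Gm1965 (0.27) and Nt5e (0.28). Itgam, a gene of the ABC gate, had a mean of 55.1 FPKM in ABCs (Aged) and 0.665 FPKM in FO B (Aged), and Il2rb 30.5 and 0.365 FPKM. The genes most like Gpr174 were Mcl1 (0.08), Txndc16 (0.08), Susd1 (0.10), Dgka (0.10) and Cd84 (0.11). Mcl1, an anti-apoptotic gene, had a mean of 153 FPKM in ABCs (Aged) and 262 FPKM in FO B (Aged). These likenesses are descriptive, and with 3 groups they largely restate the group means.

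Genes that make and break the ligands, other lipid receptors and the signalling machinery behind the receptors were read from 9 lists of 99 genes, none of them among the 9 receptors. In ABCs (Aged) against FO B (Aged), 69 passed the filter on low values; 26 rose and 17 fell at an adjusted p under 0.05 by limma, where 19.4% of all genes rose and 16.5% fell. The median log2 fold change was 0.08 for the tested genes of the lists and -0.01 for all genes. The lists were chosen with earlier results of these data known, so no excess over all genes is read from these values. Of the 43 calls, 29 were kept at an adjusted p under 0.05 by limma in every alternative that tested the gene. None of the lost calls changed sign. A filter at a mean of 5 FPKM left 56 of the 69 genes in the test, of which 19 rose and 15 fell, and genes it removed are not counted as lost. Leaving out 1 library ended 10 of the 43 calls, among the genes named in the following paragraphs Hsd3b7, Cyp27a1, Faah and Klf2. A fit with no filter on low values ended 13 of the 43, among them the same named genes, Lpar6 and the P2ry10b described above.

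Among the 15 genes of S1P supply, 11 were tested, of which 6 rose and 1 fell, with a median of 0.60. Sgpl1, the lyase that degrades S1P irreversibly, rose by 1.10 on the log2 scale (SE 0.11, adjusted p = 0.000491), from 38.7 FPKM in FO B (Aged) to 84.5 FPKM in ABCs (Aged). Plpp1, a lipid phosphatase, rose by 1.61 (SE 0.19, adjusted p = 0.000997), from 1.37 to 6.20 FPKM. Spns2, an S1P exporter, was the gene that fell, by 1.32 (SE 0.13, adjusted p = 0.000403), from 7.75 to 2.51 FPKM. Sphk1, one of the kinases that make S1P, was at most 0.330 FPKM in any library, so it was not tested.

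Of the 4 oxysterol enzymes 2 were tested, and they moved in opposite directions. Cyp27a1, a sterol hydroxylase, fell by 2.28 on the log2 scale (SE 0.59), from 30.1 to 7.03 FPKM, or to 4.50 FPKM without ABCs (Aged) replicate 2 (adjusted p = 0.0219), and the p lay between 0.0572 and 0.0748 without any one of the FO B (Aged) libraries (0.00124 to 0.154 over all alternatives). Hsd3b7, which inactivates the GPR183 ligand, rose by 1.08 (SE 0.32, adjusted p = 0.0345), but its p was between 0.0619 and 0.0993 when ABCs (Aged) replicate 1 or 2 or any FO B (Aged) library was left out (0.00709 to 0.178 over all alternatives). Ch25h and Cyp7b1, the enzymes that make that ligand, were near 0, at most 0.214 and 0.0623 FPKM in any library.

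Of the 7 endocannabinoid enzymes 4 were tested, 3 rose and 1 fell. Daglb, which makes the cannabinoid 2-arachidonoylglycerol, rose by 0.88 (SE 0.13, adjusted p = 0.0021), and Abhd6, which hydrolyses it, rose by 1.28 (SE 0.17, adjusted p = 0.00133). Faah, the hydrolase of anandamide, fell by 1.22 (SE 0.37, adjusted p = 0.0375), with a p between 0.0577 and 0.108 when ABCs (Aged) replicate 2 or 3 or any FO B (Aged) library was left out, while its mean in ABCs (Aged) went from 2.56 to 1.36 FPKM without replicate 1 (p 0.0019 to 0.199 over all alternatives). In the lysophosphatidylserine list 1 of 2 genes was tested and did not pass.

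Among 27 other lipid receptors 11 were tested, of which 3 rose and 3 fell. Gpr55, a receptor for lysophosphatidylinositol, rose by 2.79 (SE 0.23, adjusted p = 0.000195), from 0.138 FPKM (0.0864 without FO B (Aged) replicate 3) to 7.04 FPKM, and the proton-sensing Gpr65 rose by 0.95 (SE 0.11, adjusted p = 0.000741). Lpar6, a lysophosphatidic acid receptor, fell by 1.72 (SE 0.30, adjusted p = 0.00467, 0.000167 to 0.0592 over the alternatives). Gpr34, another lysophosphatidylserine receptor, was at 2.44 ± 2.03 FPKM in ABCs (Aged) and 2.90 ± 0.785 FPKM in FO B (Aged) (SD, n = 3), with a log2 difference of -0.38 (SE 0.47, adjusted p = 0.561 by limma). Without ABCs (Aged) replicate 3 that difference turned to 0.19 (SE 0.24, adjusted p = 0.581 by limma), and without ABCs (Aged) replicate 1 it was -0.81 (SE 0.42, adjusted p = 0.192 by limma). Cnr1, the second cannabinoid receptor, was at most 0.130 FPKM in any library.

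**Figure D4:**
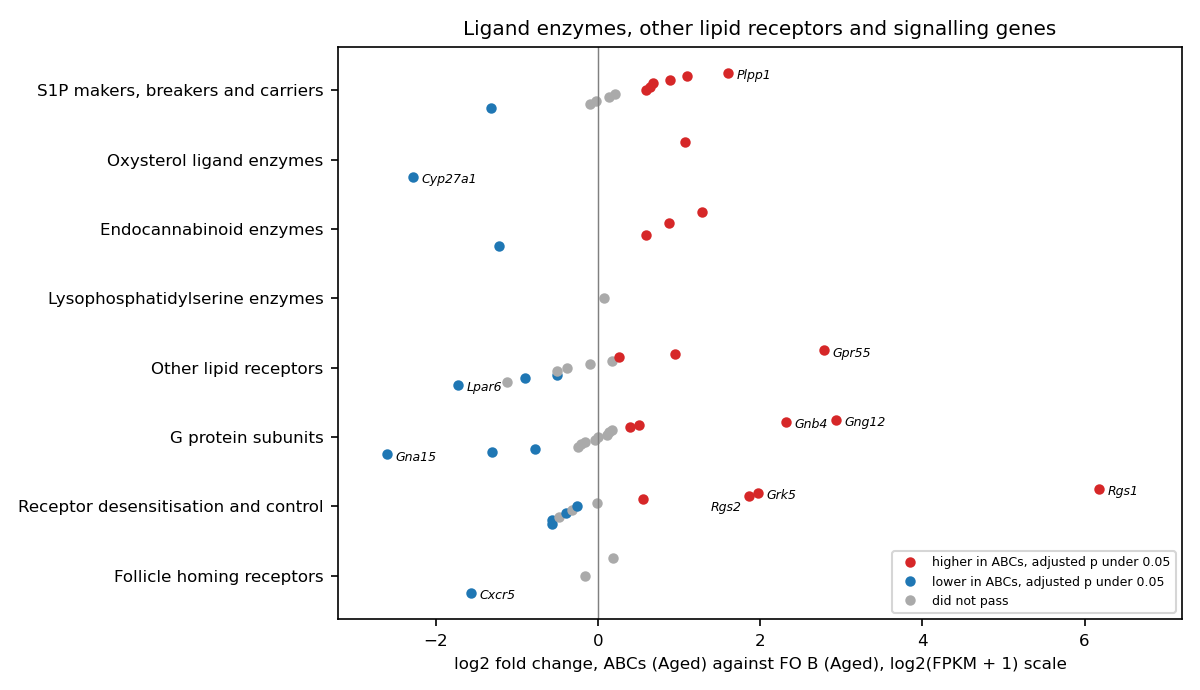
Log2 fold change of 58 of the 69 tested genes, those of 8 of the 9 lists (points), in ABCs (Aged) against FO B (Aged) on the log2(FPKM + 1) scale, 1 row per list, coloured by whether the limma adjusted p was under 0.05. Points lie on both sides of 0 in most lists, with 21 genes higher and 14 lower, and Rgs1 (6.18) is the farthest from 0.

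Downstream of the receptors, 15 of 18 G protein subunit genes were tested, of which 4 rose and 3 fell. Gng12, a gamma subunit, rose by 2.93 (SE 0.13, adjusted p = 1.7e-05) and Gnb4, a beta subunit, by 2.32 (SE 0.30, adjusted p = 0.00121). Gna13, the subunit through which S1PR2 restrains migration, fell by 0.78 (SE 0.08, adjusted p = 0.000421), from 29.9 to 17.1 FPKM. Gnai2, the main Gi subunit of lymphocytes, was at 373 ± 12.8 FPKM in ABCs (Aged) and 339 ± 8.47 FPKM in FO B (Aged) (SD, n = 3), a log2 difference of 0.14 (SE 0.06, adjusted p = 0.115 by limma). Among guanine nucleotide exchange factors, Arhgef12, which acts downstream of G12 and G13, rose by 1.40 (SE 0.12, adjusted p = 0.000226) and Dock8, an activator of Cdc42, by 0.80 (SE 0.10, adjusted p = 0.00113). Arhgef11, of the same family as Arhgef12, fell by 1.06 (SE 0.16, adjusted p = 0.00248), and Arhgef1, the exchange factor that acts downstream of G13 in lymphocytes, fell by 0.33 (SE 0.07, adjusted p = 0.0099).

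Of 12 genes that tune receptor output 11 were tested, with 4 rising and 4 falling. Rgs1, a regulator that shortens Gi signals, rose by 6.18 (SE 0.52, adjusted p = 0.000224), from 2.01 to 255 FPKM, with the ABC libraries spread from 95.4 to 458 FPKM. Without ABCs (Aged) replicate 3 the mean of Rgs1 in ABCs was 154 FPKM and the log2 fold change 5.62 (SE 0.36, adjusted p = 4.4e-05). Grk5, a receptor kinase, rose by 1.98 (SE 0.14, adjusted p = 0.000101) and Rgs2 by 1.86 (SE 0.18, adjusted p = 0.000374). Klf2, the transcription factor that promotes S1pr1 expression, rose by 0.55 (SE 0.13), from 223 to 329 FPKM (adjusted p = 0.0142, 0.0569 without FO B (Aged) replicate 1, and 0.00435 to 0.0987 over all alternatives). Cd69, whose protein holds S1PR1 inside the cell, was at 81.4 ± 28.8 FPKM in ABCs (Aged) and 96.8 ± 10.9 FPKM in FO B (Aged) (SD, n = 3), a log2 difference of -0.31 (SE 0.27, adjusted p = 0.388 by limma) that was 0.02 without ABCs (Aged) replicate 1 (SE 0.11, adjusted p = 0.892 by limma).

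Of the 3 follicle homing receptors, Cxcr5, the receptor that brings B cells into follicles, fell by 1.56 (SE 0.08, adjusted p = 2.74e-05), from 159 to 53.4 FPKM. Ccr7, which draws lymphocytes toward T cell zones, was at 247 FPKM in ABCs (Aged) and 277 FPKM in FO B (Aged), a log2 difference of -0.16 (SE 0.09, adjusted p = 0.195). Between FO B (Aged) and FO B (Young), 66 genes of the lists were tested, and by limma 0 rose and 0 fell at an adjusted p under 0.05. Of all genes, 0.346% rose and 0.119% fell at that level. An unadjusted p below 0.05 by limma was found for 13 of the 66. The share of all genes with such an unadjusted p was not computed, so nothing is read from that count. Without the filter 1 gene, Arhgef1, was called, lower by 0.23 in FO B (Aged) (adjusted p = 0.0245 by limma).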

How the data were processed

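RNA-seq of sorted splenic B cells was analysed in 9 libraries, grouped by the sample labels. The authors used SMART-Seq HT for cDNA and Nextera for the libraries, and mapped 101-base single-end reads to mm10. The submitters' processing notes name TopHat2 2.1.1, Bowtie2 2.2.8, SAMtools 0.1.18 and Cuffdiff 2.2.1. The methods of the study name other versions of TopHat, Bowtie2 and SAMtools, and Cufflinks for the FPKM values, so the versions used are not settled. The gene annotation is not given in the sources used here. The deposited values are FPKM per gene symbol and library, not counts. A linear scale with a mean and SD was used for levels, and log2(FPKM + 1) for differences, which understates changes of low genes.

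The 9 receptors and all gene lists were chosen with earlier results of these data known. Receptors were given no test, and their SE came from the spread of their own values in the 2 groups compared. Listed pathway genes were tested with limma 3.58.1 in R 4.3.3 (eBayes with a trend), in fits of the 2 groups compared and over all genes whose mean reached 1 FPKM, with Benjamini-Hochberg adjustment. These p-values rest on the spread between 3 libraries per group, which eBayes draws toward a trend over all genes in the fit. The SE of a listed gene comes from that fit, so it is not the same measure as the SE of a receptor. The pathway genes named were up to 3 called genes per list and contrast with the largest change, and 14 genes fixed by name. For the receptors with the largest rise and fall, the 5 most alike genes were named. Current symbols were matched to older symbols of the files for 7 of the 99 genes.

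Whole reads were recovered for 7 of the 9 receptors as multiples of 1 common step, within 0.03 reads; Gpr174 and Cnr2 gave no step. Depth was approximated from 484 genes. Other steps used Python 3.11.15, numpy 2.4.6, pandas 2.3.3, scipy 1.17.1, Biopython 1.88 and matplotlib 3.10.9, and the fit was tested on simulated data. Positions came from GENCODE M21 on GRCm38. Alternatives were a pseudocount of 0.1, no filter or a mean of 5 FPKM or more, quantile normalization, scaling each library to the same FPKM sum, a fit of all 9 libraries, a block for the replicate number, an FDR of 0.01, and each library left out in turn. Some items are not reported here.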

Additional observations from a re-analysis of the deposited data

How the results depend on the processing

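In ABCs (Aged) against FO B (Aged), the count of listed pathway genes that fell was 17. It was 11 with no filter on low values, 11 at an FDR under 0.01, and 11 to 16 when 1 library was left out. The value was 11 with either replicate 1 or replicate 2 of FO B (Aged) left out. Over all genes the count that fell was 1719 of 10412. It was 1045 of 24346 with no filter, 818 at an FDR under 0.01, and 1054 and 1219 without FO B (Aged) replicate 1 and replicate 2. The count of listed genes that rose, 26, lay between 19 and 27 over all alternatives, and that over all genes, 2020, between 1254 and 2271. Between FO B groups the count of listed genes that fell, 0, was 1 with no filter on low values (Arhgef1), where 21 of 24346 genes fell. The receptors whose FO B (Aged) and FO B (Young) libraries did not overlap numbered 1, and 1 to 5 when 1 library was left out. They numbered 5 when FO B (Young) replicate 2 was absent and 3 when FO B (Aged) replicate 2 was. With fewer libraries any gene avoids overlap more easily. The share of all genes was not computed for these settings, so nothing is read from these counts. Differences between ABCs (Aged) and FO B (Aged) kept their sign for all 9 receptors under each of the 9 alternatives that recompute a value; that of S1pr3 between FO B groups changed sign in 3 of 9. A pseudocount of 0.1 moved the S1pr5 difference from 4.82 to 7.16, and scaling all libraries to one FPKM sum moved it to 5.23. With the replicate number as a block, 24 listed genes rose and 17 fell in ABCs (Aged), and 0 rose and 0 fell between FO B groups. The libraries were not treated as paired, since nothing says what equal numbers mark. The deviations of same-numbered ABCs (Aged) and FO B (Aged) libraries correlated at 0.083, -0.018 and 0.109 across genes, below 0.1 for 2 of the 3 pairs. ABCs (Aged) replicates 1 and 3 correlated best with their own number and replicate 2 with FO B (Aged) replicate 1. Between FO B groups the same-numbered values were -0.054, 0.141 and -0.096. FO B (Aged) replicate 1 and FO B (Young) replicate 3, which come from mice of different ages, correlated at 0.160. These correlations therefore cannot tell whether equal numbers mark the same mouse. The test for outlying samples needs at least 4 libraries per group and was not applied. The cause of these shifts was not tested. Fold values of S1pr5 are limited by 10 reads in FO B (Aged) and 1 in FO B (Young), and values of S1pr2 by at most 65 reads per library.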
